A study of Homo sapiens with 35 samples.

Results

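The factors that start mesendoderm formation were compared with their own base medium in H9 human embryonic stem cells, an established line, after 48 h. The comparison takes 6 of the 35 libraries of the study: 3 of cells given BMP4 plus Activin A at 40 ng/mL in E6 medium, called BA, and 3 of cells in E6 alone. They were chosen by their labels. E6 is a defined medium that lacks the FGF2 and TGF-beta of E8, the medium in which the line was maintained on Matrigel before it was seeded as single cells. Both groups therefore share the line, the seeding, the loss of those maintenance factors and the 48 h of culture, and differ in the 2 added factors. The labels do not say whether 40 ng/mL is the dose of each factor. To estimate the spread, the fit also held 3 libraries each of cells at seeding, of BA at 24 h and of E8 at 48 h, 15 libraries in all. The labels name E6 as a control for spontaneous differentiation and number the libraries of each group 1 to 3, without saying whether these were separate cultures, so the spread between them may be partly technical.

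BMP4 binds type I and type II receptors that phosphorylate SMAD1, SMAD5 and SMAD9, and Activin A acts through the SMAD2 and SMAD3 branch that it shares with NODAL. In the early embryo BMP induces WNT3, and WNT3 induces NODAL, and this cascade opens the primitive streak, where cells express TBXT, EOMES and MIXL1 and become mesoderm or endoderm. BMP also drives amnion genes, and human pluripotent cells that lack BMP and Nodal signals tend to drift to forebrain-type neuroectoderm.

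Poly(A) RNA was counted per gene, and the 6 libraries held 16390111 to 32552740 counts, with both replicate 1 libraries the shallowest (16390111 in BA and 17562913 in E6). Values are given as CPM, the counts scaled to a common library size with TMM factors, in the order of replicates 1, 2 and 3. They are read counts not divided by gene length, so they compare media and not genes. In bulk RNA fewer cells of a type and less RNA per cell cannot be told apart. In both media replicate 1 stood apart from replicates 2 and 3. Over the genes tested, log2 CPM correlated with r = 0.988 between BA replicates 2 and 3 but r = 0.868 and 0.874 between either and BA replicate 1, and with r = 0.990 against 0.893 and 0.894 in E6. The labels give no date or batch for this split, and with 1 library a medium on one side its source was not tested. The replicate number was therefore a block in the test. The counts of each gene list are also given from a fit of replicates 2 and 3 alone, which leaves replicate 1 out.

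The label of embryonic stem cells was checked on POU5F1 alone, which all 6 libraries held. By itself it does not show the state of the cells at 48 h. The pluripotency genes SOX2, ESRG and FOXD3 and the related SOX3, given below, were far lower in BA replicate 1 than in any other library. POU5F1, the core pluripotency factor, stood at 307, 2673 and 1623 CPM in BA and 533, 1001 and 1081 CPM in E6. The groups overlapped (log2 difference 0.46, SE 0.29, adjusted p = 0.283), and reads of POU5F1 may be shared with its pseudogene copies.

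The promoter stretches of the genes with the smallest p among BMP-SMAD targets, primitive streak genes and forebrain genes are printed here because these genes mark the ends of the response. Genes without a RefSeq promoter, or not reported here, were passed over in this choice. GATA3 and BAMBI are targets of BMP-activated SMADs, WNT3 is the streak ligand and FEZF1 is a forebrain repressor that was high in E6. Each stretch is the 250 bases before the RefSeq transcription start on GRCh38.p14, read 5′ to 3′ on the gene's strand. Capitals mark matches on either strand to GGCGCC, a GC-rich element bound by BMP SMADs, GGTGTGA (T-box factors), CTTTGAT (TCF and LEF factors) or AATCCAC (FOXH1, the partner of SMAD2 in Nodal signalling). The motifs did not overlap each other.
GATA3 (chr10:8045083-8045332, plus strand): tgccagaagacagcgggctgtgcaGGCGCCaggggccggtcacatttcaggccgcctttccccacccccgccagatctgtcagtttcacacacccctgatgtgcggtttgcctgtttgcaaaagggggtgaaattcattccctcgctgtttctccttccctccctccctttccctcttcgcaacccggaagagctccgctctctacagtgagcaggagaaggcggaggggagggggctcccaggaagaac
BAMBI (chr10:28677271-28677520, plus strand): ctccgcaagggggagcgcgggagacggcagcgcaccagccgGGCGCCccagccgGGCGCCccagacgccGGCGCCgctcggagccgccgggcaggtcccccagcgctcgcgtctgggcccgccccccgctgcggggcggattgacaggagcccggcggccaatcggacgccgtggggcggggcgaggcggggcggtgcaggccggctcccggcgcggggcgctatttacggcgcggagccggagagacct
WNT3 (chr17:46818693-46818942, minus strand): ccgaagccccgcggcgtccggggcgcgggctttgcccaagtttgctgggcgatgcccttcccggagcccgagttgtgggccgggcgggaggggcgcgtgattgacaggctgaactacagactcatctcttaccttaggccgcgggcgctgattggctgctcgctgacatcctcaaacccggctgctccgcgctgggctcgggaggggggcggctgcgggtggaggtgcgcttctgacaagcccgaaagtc
FEZF1 (chr7:122304751-122305000, minus strand): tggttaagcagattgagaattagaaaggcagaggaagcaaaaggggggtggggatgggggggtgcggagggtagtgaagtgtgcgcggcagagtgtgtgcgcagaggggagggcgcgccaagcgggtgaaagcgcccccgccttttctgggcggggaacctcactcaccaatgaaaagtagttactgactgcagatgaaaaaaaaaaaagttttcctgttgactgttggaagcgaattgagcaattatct

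The BAMBI stretch held 3 matches to GGCGCC, at 209, 196 and 181 bases before the start, and the GATA3 stretch held 1, at 226 bases. The stretches of WNT3 and FEZF1 held none of the 4 motifs, which says only that these letters are not in this window. Both windows lie inside the GENCODE spans of these minus-strand genes, which run up to chr17:46833154 and chr7:122310691. The bases before those ends were not searched. Among all 27305 RefSeq promoters 16.1% held GGCGCC, 2.72% GGTGTGA, 2.28% CTTTGAT and 1.97% AATCCAC. Over the tested genes with a RefSeq promoter, GGCGCC was in 28.1% of the 1866 that were higher in BA, 23.4% of the 1324 that were lower and 24.9% of all 11928. Of the 14 BMP-SMAD targets with a RefSeq promoter 2 held it, and of the 13 primitive streak genes 2 did. Of the 30 forebrain genes 9 held it. CTTTGAT was in 1 of the BMP-SMAD targets, 2 of the streak genes and 3 of the forebrain genes. AATCCAC was in 2 of the streak genes and GGTGTGA in 1 of the forebrain genes, and neither was in any other promoter of these lists. A match is a description of the letters and was not tested as a binding site.

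Of 21554 genes tested, 2665 were higher in BA than in E6 at an adjusted p below 0.05 (12.4% of those tested) and 2095 were lower (9.72%), by edgeR's quasi-likelihood test with the replicate block. At least a 2-fold difference was found for 1065 of the higher and 1246 of the lower genes. Words such as rose and fell compare BA with E6 and not with the cells at seeding. The direction was the same in all 3 same-numbered pairs for 4637 of the 4760 called genes. These genes were called from the same pairs, so that agreement follows largely from the choice. All 3 BA libraries lay above all 3 E6 libraries for 2120 genes (9.84% of those tested) and below them for 2000 (9.28%). Without the block 437 genes were higher (2.03%) and 322 lower (1.49%), and all 759 were also called with it. The fit of replicates 2 and 3 alone called more genes, 4425 higher (20.3% of 21822) and 4214 lower (19.3%), and its list counts are to be read against those shares. In it 4571 of the 4760 were called in the same direction and none in the opposite one, but it reuses libraries of the main fit and is not an independent check. Leaving out E6 replicate 2 or E6 replicate 3 left 2759 and 2543 called genes.

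The difference between the media also depended on the replicate set. For 2094 genes (9.72%) BA minus E6 was larger in replicate 1 than in replicates 2 and 3, and for 1948 (9.04%) it was smaller, by a test of the interaction in the same libraries. In such counts larger and smaller keep the sign, so a more negative difference counts as smaller. Replicate 1 is 1 library a medium in that test, and the spread comes from replicates 2 and 3 of the 5 groups, whose libraries lay close together, so it does not measure how a repeat of replicate 1 would vary. Of the 2665 genes higher in BA 538 had a larger difference in replicate 1 and 199 a smaller one. Of the 2095 lower genes 391 fell further in replicate 1 and 100 less far. For 1619 of the 4042 genes with unlike differences, the difference in replicate 1 had the opposite sign to that in both other replicates.

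**Figure D1:**
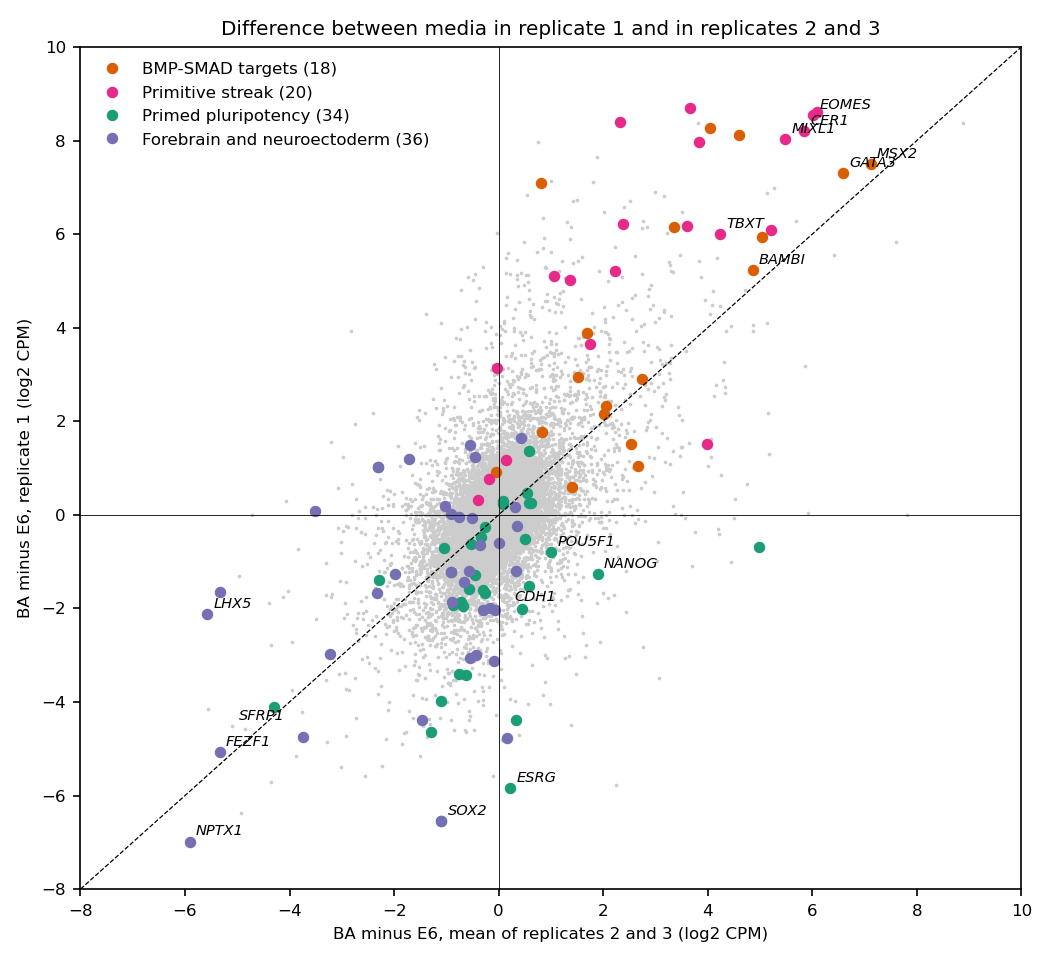
Difference between BA and E6 at 48 h for each of the 21554 genes tested (grey points), on a log2 CPM scale with 0.5 CPM added, in replicate 1 (vertical axis) and as the mean of replicates 2 and 3 (horizontal axis), with the tested members of 4 gene lists in colour and the dashed line marking equal differences. Of the BMP targets, BAMBI and MSX2 lie near the line and MSX1 lies far above it. Most streak genes lie above it, and SOX2, NANOG and most other pluripotency genes lie below it.

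Targets of BMP-activated SMADs were higher in BA in nearly every case. Of the 18 BMP-SMAD targets tested 16 were higher in BA and none lower (12.4% of all genes were higher). In 15 of the 16 all BA libraries lay above all E6 libraries, the exception being ID1. That order held for 9.84% of all genes, and 2561 of the 4760 called genes were apart in the direction of their call. BAMBI, a decoy receptor that BMP induces as feedback, stood at 361, 314 and 317 CPM in BA and 9.10, 10.6 and 10.1 CPM in E6. The groups did not overlap, with BA 33.6-fold higher (log2 difference 5.07, SE 0.22, adjusted p = 1.85e-07). Its difference was called larger in replicate 1, by a small amount (difference between the sets 0.38, adjusted p = 0.0462). MSX2, a homeobox factor, was nearly silent in E6, with 139, 136 and 129.7 CPM in BA and 0.269, 0.564 and 0.364 CPM in E6 (log2 difference 8.30, SE 0.38, adjusted p = 3.27e-07). Its 3 BA values lay close together.

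GATA3, a zinc finger factor of amnion, trophoblast and early BMP responses, stood at 139, 59.3 and 58.9 CPM in BA and 0.377, 0.0890 and 0.152 CPM in E6 (log2 difference 8.79, SE 0.30, adjusted p = 2.19e-08). GATA2, its relative, showed the same order with 46.9, 25.0 and 24.2 CPM in BA and 0.269, 0.356 and 0.182 CPM in E6 (log2 difference 6.76, SE 0.44, adjusted p = 4.17e-06). Both were higher in BA replicate 1 than in the other two, and for neither was the difference called unlike between replicate 1 and replicates 2 and 3 (adjusted p = 0.766 and 0.485). DLX5, a homeobox factor, had 133 reads in BA and 2 in E6, a ratio of 75.1 with an exact 95% interval of 20.4 to 627 for counting error only. The uncalled members were MSX1, with 75.6, 1.15 and 1.57 CPM in BA and 0.0538, 0.475 and 0.637 CPM in E6, and DLX3, with 0.540, 1.74 and 1.04 CPM in BA and 0.0538, 1.31 and 1.55 CPM in E6. MSX1 was high in BA replicate 1 alone.

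The ID genes, which encode inhibitors of basic helix-loop-helix factors, rose in every pair but from a base that itself differed between the sets. ID1 stood at 72.1, 583 and 470.0 CPM in BA and 34.6, 84.0 and 80.3 CPM in E6 (log2 difference 2.27, SE 0.41, adjusted p = 0.00296, and 0.0877 without the block). ID3 stood at 132, 482 and 433 CPM in BA and 29.3, 112 and 113 CPM in E6 (log2 difference 2.05, SE 0.25, adjusted p = 2.74e-04, and 0.102 without the block). For ID1, BA replicate 1 lay below the E6 libraries of replicates 2 and 3 while still above its own E6 partner. ID4 rose as well, with 34.9, 77.5 and 69.6 CPM in BA and 11.9, 12.3 and 12.4 CPM in E6 (log2 difference 2.38, SE 0.41, adjusted p = 0.00222), and ID2 rose least, with a log2 difference of 1.20 (adjusted p = 0.00761, and 0.0654 without the block, with the call lost without BA replicate 3, at adjusted p of up to 0.0505).

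The inhibitory SMADs, which dampen the pathway, were higher in BA. SMAD6 stood at 479, 93.0 and 82.7 CPM in BA and 6.24, 6.89 and 9.49 CPM in E6 (log2 difference 4.47, SE 0.54, adjusted p = 2.46e-04), with a larger difference in replicate 1 (difference between the sets 2.84, adjusted p = 2.12e-05). SMAD7 stood at 131, 66.1 and 63.1 CPM in BA and 17.2, 9.35 and 9.13 CPM in E6 (log2 difference 2.86, SE 0.21, adjusted p = 9.76e-06) and its difference was not called unlike between the sets (adjusted p = 0.657). SMAD9, HEY1 and ATOH8 were also higher, with log2 differences of 2.53, 2.49 and 1.69; without the block their adjusted p were 0.0689, 0.172 and 0.396. TBX3 and HAND1, targets that also mark mesoderm and amnion, were far higher in BA replicate 1. HAND1 stood at 269.7, 11.8 and 10.6 CPM in BA and 0.377, 0.237 and 0.182 CPM in E6 (log2 difference 7.36, SE 0.72, adjusted p = 1.83e-04). Over the list the median log2 difference was 3.14 (0.04 over all genes tested). The pairs had medians that were 3.42, 2.68 and 2.49 in replicates 1, 2 and 3. In replicate 1 the difference was larger for 6 of the 18 and smaller for 3 (9.72% and 9.04% of all genes). Without the block 9 of the 18 were called, and in replicates 2 and 3 alone 17.

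**Figure D2:**
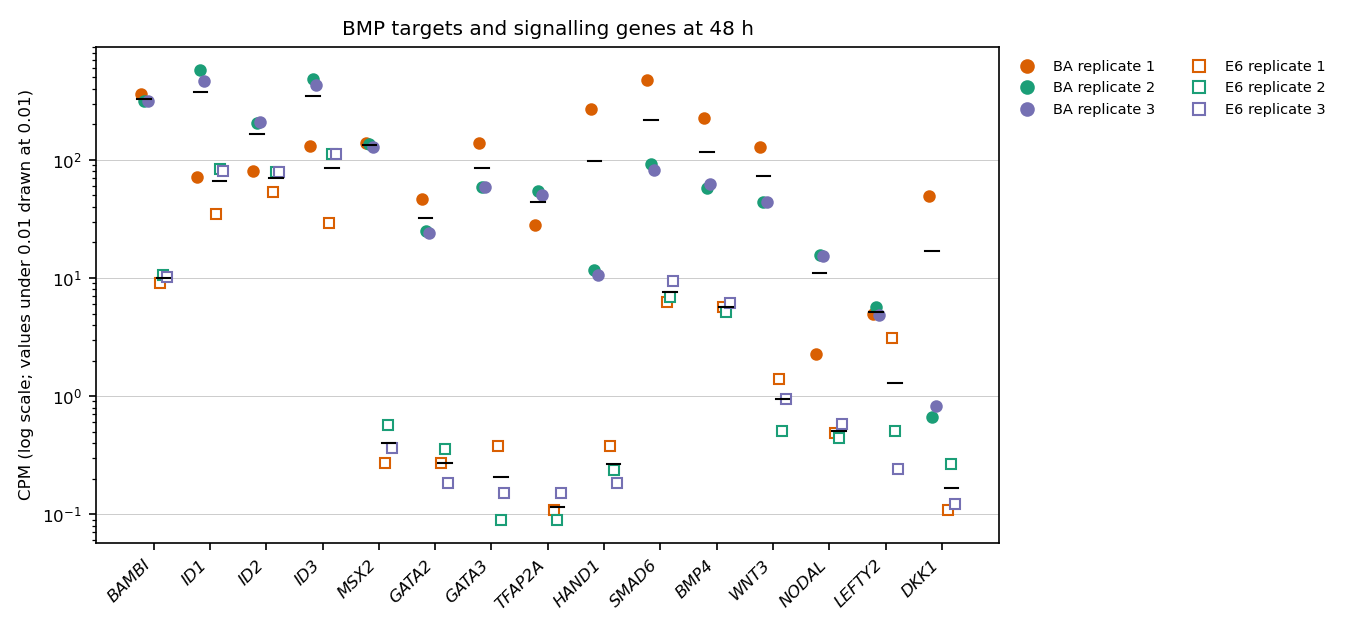
Level in CPM (log axis) of BMP targets and signalling genes in each of the 6 libraries at 48 h; filled circles are BA, open squares E6, colours the replicate numbers and black bars the mean of 3 libraries. BAMBI and MSX2 are alike in the 3 BA libraries, while SMAD6, HAND1, BMP4 and DKK1 are highest in BA replicate 1. Among the BA libraries ID1, ID2, ID3 and NODAL are lowest in replicate 1.

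The ligands, receptors and antagonists of the BMP pathway moved in 1 direction where they were called: 9 of 17 were higher in BA and none lower (9.72% of all genes were lower). BMP4 itself, the ligand also added to the medium, was transcribed at 229, 57.7 and 62.6 CPM in BA and 5.71, 5.19 and 6.16 CPM in E6 (log2 difference 4.05, SE 0.45, adjusted p = 1.48e-04). BMP2 was not called, since it stood at 428, 7.64 and 8.80 CPM in BA and 11.6, 6.50 and 7.52 CPM in E6 and was raised in BA replicate 1 alone (log2 difference 3.08, SE 1.25, adjusted p = 0.0996). Among receptors, BMPR1A rose with 133, 184 and 181 CPM in BA and 67.9, 42.9 and 40.4 CPM in E6 (log2 difference 1.80, SE 0.24, adjusted p = 5.33e-04). ACVR1 stood at 76.9, 44.3 and 44.9 CPM in BA and 19.5, 21.0 and 21.3 CPM in E6 (log2 difference 1.41, SE 0.19, adjusted p = 4.88e-04). BMPR2, the type II receptor, was higher by 1.59 on the log2 scale (adjusted p = 0.00426, and 0.179 without the block). BMPR1B, ACVR2A and ACVR2B were not called.

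Of the secreted antagonists NOG and GREM1 rose. NOG, which encodes noggin, stood at 26.9, 35.6 and 25.3 CPM in BA and 0.861, 3.26 and 2.61 CPM in E6 (log2 difference 3.62, SE 0.88, adjusted p = 0.0136, and 0.0686 without the block). GREM1 stood at 19.3, 9.82 and 14.1 CPM in BA and 6.78, 0.801 and 1.21 CPM in E6 (log2 difference 2.85, SE 0.51, adjusted p = 0.00258, and 0.25 without the block). CHRD, which encodes chordin, had 7.49, 2.01 and 1.79 CPM in BA and 2.31, 2.61 and 3.49 CPM in E6 and was not called. FST, the Activin-binding follistatin, was not called either, at 222, 71.1 and 79.5 CPM in BA and 128, 46.6 and 49.0 CPM in E6 (log2 difference 0.69, SE 0.24, adjusted p = 0.0596). Both were highest in BA replicate 1. The list had a median log2 difference of 1.59, and all genes tested had 0.04. Its median by pair was 1.44, 0.85 and 0.69 in replicates 1, 2 and 3. In replicates 2 and 3 alone 11 of the 17 were higher and 2 lower, and without the block 4 were higher.

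In the Nodal and Activin pathway 8 of 19 tested genes were higher in BA and none lower (12.4% and 9.72% of all genes). NODAL, the ligand that Activin A mimics, stood at 2.29, 15.6 and 15.3 CPM in BA and 0.484, 0.445 and 0.576 CPM in E6 (log2 difference 4.38, SE 0.55, adjusted p = 3.12e-04). Among the BA libraries it was lowest in replicate 1, and the difference was smaller there (difference between the sets -2.67, adjusted p = 0.00189). GDF3, a TGF-beta ligand of pluripotent cells, was raised in replicates 2 and 3 only, with 0.675, 48.0 and 43.7 CPM in BA and 1.40, 1.01 and 0.940 CPM in E6 (log2 difference 4.61, SE 0.93, adjusted p = 0.00515), and BA replicate 1 lay below its E6 partner. LEFTY1 and LEFTY2, the feedback antagonists of NODAL, were not called. LEFTY1 stood at 7.82, 11.9 and 13.4 CPM in BA and 9.74, 0.326 and 0.121 CPM in E6, with its E6 level in replicate 1 near that of BA.

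CER1, a secreted antagonist of NODAL, BMP and WNT made by the anterior streak and endoderm, had a wide range. It stood at 2802, 31.5 and 35.6 CPM in BA and 8.99, 0.0890 and 0.0910 CPM in E6 (log2 difference 7.78, SE 1.35, adjusted p = 0.00235, and 0.0607 without the block), and the E6 library of replicate 1 was also the highest of its group. The feedback genes PMEPA1 and FURIN rose evenly. PMEPA1, which removes TGF-beta signals, stood at 118, 74.1 and 66.9 CPM in BA and 29.7, 13.0 and 11.6 CPM in E6 (log2 difference 2.32, SE 0.15, adjusted p = 3.48e-06). FURIN, the protease that matures these ligands, stood at 147, 167 and 157 CPM in BA and 58.8, 50.7 and 48.7 CPM in E6 (log2 difference 1.59, SE 0.14, adjusted p = 3.37e-05). SKIL, a SMAD corepressor, stood at 266, 108 and 112 CPM in BA and 164, 17.2 and 13.8 CPM in E6 (log2 difference 1.92, SE 0.41, adjusted p = 0.00659, and 0.578 without the block, with the call lost without E6 replicate 2, at adjusted p of up to 0.0501). SMAD3, a mediator, was called near the threshold (log2 difference 0.43, SE 0.14, adjusted p = 0.0497, and 0.814 without the block, with the call lost without BA replicate 2, BA replicate 3, E6 replicate 1, E6 replicate 2 or E6 replicate 3, at adjusted p of up to 0.253). The receptors and other mediators ACVR1B, ACVR1C, SMAD2, SMAD4, FOXH1 and TDGF1 were not called. The median log2 difference was 0.47 over the list, against 0.04 over all genes tested. By pair it was 0.36, 0.92 and 1.04 in replicates 1, 2 and 3. With both replicate 1 libraries left out 13 were higher and 4 lower, and without the block 4 were higher.

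Several WNT ligands rose in BA, and the inhibitor SFRP1 fell. Among 29 tested ligands, receptors and inhibitors 10 were higher and 4 lower, against 12.4% and 9.72% of all genes, so the share that was lower is near the background. WNT3 stood at 129, 44.4 and 44.1 CPM in BA and 1.40, 0.505 and 0.940 CPM in E6, 71.1-fold higher (log2 difference 6.15, SE 0.22, adjusted p = 2.93e-08). The gene lies at chr17:46762506-46833154 on GRCh38. WNT5A, a ligand of the non-canonical branch, stood at 493, 12.3 and 14.8 CPM in BA and 25.9, 8.70 and 8.49 CPM in E6 (log2 difference 2.34, SE 0.72, adjusted p = 0.0367, and 0.199 without the block, with the call lost without BA replicate 1, E6 replicate 1, E6 replicate 2 or E6 replicate 3, at adjusted p of up to 0.158). WNT5B stood at 83.6, 15.3 and 14.99 CPM in BA and 3.28, 3.44 and 2.09 CPM in E6 (log2 difference 3.10, SE 0.68, adjusted p = 0.00789, and 0.0832 without the block). WNT8A stood at 12.1, 8.02 and 9.27 CPM in BA and 2.31, 0.712 and 0.698 CPM in E6 (log2 difference 3.33, SE 0.45, adjusted p = 4.95e-04, and 0.144 without the block). WNT6 had 39 reads in BA and none in E6, at least 14.7-fold higher against a floor of 3 reads over the group.

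SFRP1, a secreted inhibitor that binds WNT ligands, was the gene with the smallest p among those lower in BA. It stood at 90.2, 44.6 and 43.9 CPM in BA and 2077, 1512 and 1542 CPM in E6, 30.1-fold lower in BA (log2 difference -4.91, SE 0.16, adjusted p = 1.65e-08). It fell less far in replicate 1 (difference between the sets 0.58, adjusted p = 0.0406). At seeding it stood at 1076 ± 286 CPM (SD, n = 3), between the media. DKK1, an inhibitor induced by WNT itself, stood at 49.0, 0.660 and 0.817 CPM in BA and 0.108, 0.267 and 0.121 CPM in E6 and was far higher in BA replicate 1 (log2 difference 4.55, SE 1.43, adjusted p = 0.0413, and 0.111 without the block, with the call lost without BA replicate 1, BA replicate 3, E6 replicate 1 or E6 replicate 3, at adjusted p of up to 0.206). DKK3 rose evenly, with 67.8, 65.3 and 68.8 CPM in BA and 36.0, 34.7 and 33.5 CPM in E6 (log2 difference 0.96, SE 0.09, adjusted p = 3.89e-05). Of the Frizzled receptors, FZD4 and FZD1 rose (FZD1 adjusted p = 0.00918, and 0.299 without the block) and FZD2 and FZD7 fell. FZD4 stood at 213, 44.5 and 45.8 CPM in BA and 16.7, 14.5 and 15.01 CPM in E6 (log2 difference 2.37, SE 0.40, adjusted p = 0.0019). FZD2 stood at 19.9, 51.0 and 41.6 CPM in BA and 117, 104 and 106 CPM in E6 (log2 difference -1.55, SE 0.28, adjusted p = 0.00269). FZD7 was lower in BA in replicates 2 and 3 and not in replicate 1, with 608, 119 and 118 CPM in BA and 554, 573 and 622 CPM in E6 (log2 difference -1.48, SE 0.38, adjusted p = 0.0168, and 0.458 without the block, with the call lost without BA replicate 2, BA replicate 3, E6 replicate 2 or E6 replicate 3, at adjusted p of up to 0.063). RSPO3, an enhancer of WNT signals, was too rarely read outside BA replicate 1 to be tested, with 411, 8 and 9 reads in BA and 14, 0 and 4 in E6. Without E6 replicate 2 or E6 replicate 3, 2 of the 29 genes were lower. Without replicate 1 of each group 12 were higher and 8 lower, and without the block 4 were higher and 2 lower.

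Genes that WNT signals induce gave 8 higher and 1 lower of 14 tested (12.4% and 9.72% of all genes). SP5, a direct target of beta-catenin, stood at 63.1, 38.0 and 28.6 CPM in BA and 0.377, 1.99 and 2.52 CPM in E6 (log2 difference 4.47, SE 1.02, adjusted p = 0.0101). NOTUM, an enzyme that inactivates WNT ligands, stood at 26.8, 12.8 and 11.9 CPM in BA and 0.108, 0.237 and 0.182 CPM in E6 (log2 difference 6.31, SE 0.55, adjusted p = 9.03e-05). TCF7, a mediator, stood at 94.8, 39.3 and 42.6 CPM in BA and 12.3, 12.9 and 12.2 CPM in E6 (log2 difference 2.14, SE 0.34, adjusted p = 0.00142). LGR5, the R-spondin receptor, stood at 205, 0.417 and 0.377 CPM in BA and 0.323, 0 and 0.0607 CPM in E6, so that its level came almost wholly from BA replicate 1 (log2 difference 7.95, SE 1.48, adjusted p = 0.00336, and 0.0885 without the block, with the call lost without E6 replicate 1, at adjusted p of up to 0.124). AXIN2, the most used reporter of the pathway, was not called, with 45.1, 12.9 and 12.9 CPM in BA and 29.1, 21.8 and 22.2 CPM in E6: in BA it was higher than in E6 in replicate 1 and lower in replicates 2 and 3 (difference between the sets 1.40, adjusted p = 2.12e-04). LEF1, a mediator that WNT also induces, stood at 57.9, 1.77 and 2.70 CPM in BA and 1.18, 1.37 and 1.30 CPM in E6, high in BA replicate 1 alone. Over the list the median log2 difference was 1.75 (0.04 over all genes tested). The pairs had medians that were 2.50, 0.81 and 1.01 in replicates 1, 2 and 3. In replicates 2 and 3 alone 11 were higher and 2 lower, and without the block 4 were higher and none lower. Without E6 replicate 1, 5 were higher.

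Several FGF ligands were higher in BA and the receptors FGFR1 and FGFR2 lower. Of 30 genes tested in this pathway 11 rose and 5 fell (12.4% and 9.72% of all genes). The streak ligand FGF8 stood at 7.76, 1.77 and 1.32 CPM in BA and 0.161, 0.119 and 0.0910 CPM in E6 (log2 difference 4.49, SE 0.65, adjusted p = 7.94e-04). FGF17 stood at 27.9, 3.64 and 3.77 CPM in BA and 0.269, 0.415 and 0.394 CPM in E6 (log2 difference 4.39, SE 0.73, adjusted p = 0.00179). FGF4 stood at 3.84, 4.998 and 4.87 CPM in BA and 0.700, 0.772 and 0.637 CPM in E6 (log2 difference 2.74, SE 0.46, adjusted p = 0.00193, and 0.0545 without the block). FGFR1, the main receptor of these cells, stood at 518, 804 and 736 CPM in BA and 1217, 1572 and 1686 CPM in E6 (log2 difference -1.12, SE 0.15, adjusted p = 4.15e-04). FGFR2 stood at 78.2, 137 and 143 CPM in BA and 248, 222 and 235 CPM in E6 (log2 difference -0.997, SE 0.25, adjusted p = 0.0163, and 0.071 without the block, with the call lost without BA replicate 1 or E6 replicate 1, at adjusted p of up to 0.0555). FGFR3 and FGFR4 were not called. Targets of the ERK kinases were mixed: ETV4 and ETV5 rose by 0.85 (adjusted p = 0.00375, and 0.0509 without the block) and 1.14 (adjusted p = 2.58e-04), while the log2 difference of ETV1 was -0.88 (adjusted p = 4.66e-04, and 0.273 without the block). IER3, an early response gene, stood at 114, 163 and 143 CPM in BA and 3.50, 22.9 and 18.1 CPM in E6 (log2 difference 3.61, SE 0.54, adjusted p = 9.69e-04, and 0.0608 without the block). SPRY4 and DUSP6, feedback inhibitors of ERK, were not called, and both were highest in BA replicate 1. SPRY4 stood at 672, 132 and 139 CPM in BA and 107, 127 and 117 CPM in E6. DUSP6 stood at 127, 30.1 and 35.6 CPM in BA and 74.4, 45.3 and 39.1 CPM in E6. With both replicate 1 libraries left out 15 were higher and 8 lower, and without the block 3 were higher and 1 lower. Without BA replicate 1, 3 were lower.

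Most primitive streak genes were higher in BA, and in BA replicate 1 most reached far higher levels than in the other libraries. Of 20 genes 16 were higher and none lower (12.4% and 9.72% of all genes), all 16 with BA libraries above all E6 libraries. That order held for 9.84% of all genes, and 2561 of the 4760 called genes were apart in the direction of their call. TBXT, the T-box factor that marks the streak, stood at 93.8, 28.7 and 24.1 CPM in BA and 0.969, 0.831 and 1.03 CPM in E6 (log2 difference 5.29, SE 0.66, adjusted p = 2.96e-04). EOMES, a T-box factor needed for endoderm and cardiac mesoderm, stood at 1048, 45.2 and 46.1 CPM in BA and 2.31, 0.208 and 0.212 CPM in E6 (log2 difference 8.22, SE 0.56, adjusted p = 5.69e-06). MIXL1, a homeobox factor of mesendoderm, stood at 722, 34.2 and 38.8 CPM in BA and 2.26, 0.356 and 0.303 CPM in E6 (log2 difference 7.51, SE 0.84, adjusted p = 1.61e-04). In all 3 genes the lowest BA library stood more than 10 times above the highest E6 library, and BA replicate 1 was the highest.

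The E6 library of replicate 1 was also the highest E6 library for EOMES and MIXL1, so the ratio between media varied less than the level. For EOMES the difference between media was not called unlike between the sets (difference between the sets 1.09, adjusted p = 0.212), and for TBXT it was (difference between the sets 1.77, adjusted p = 0.0215). TBXT lies at chr6:166157656-166168700 and EOMES at chr3:27715949-27722711 on GRCh38. EVX1, a posterior streak factor, had 2444 reads in BA and 1 in E6, a ratio of 2761 with an exact 95% interval of 495 to 109102 for counting error only, and stood at 138, 6.91 and 6.41 CPM in BA (adjusted p = 1.39e-06). LHX1, a factor of anterior mesendoderm, stood at 479, 3.51 and 4.12 CPM in BA and 0.915, 0.445 and 0.273 CPM in E6 (log2 difference 6.19, SE 1.12, adjusted p = 0.00283, and 0.0595 without the block), with a much larger difference in replicate 1 (difference between the sets 5.64, adjusted p = 1.32e-05). GSC, an organizer factor, stood at 22.7, 1.11 and 1.10 CPM in BA and 0.215, 0.148 and 0.0910 CPM in E6 (log2 difference 4.71, SE 0.73, adjusted p = 0.0012, and 0.0602 without the block).

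MESP1, the factor of the first cardiac mesoderm, stood at 44.5, 4.86 and 3.62 CPM in BA and 0.108, 0.505 and 0.303 CPM in E6 (log2 difference 4.78, SE 0.94, adjusted p = 0.00439). APLNR, the apelin receptor of migrating mesendoderm, stood at 2761, 60.5 and 72.0 CPM in BA and 6.57, 0.505 and 0.455 CPM in E6 (log2 difference 7.86, SE 0.68, adjusted p = 2.78e-05, and 0.0663 without the block). PDGFRA, a receptor of nascent mesoderm, had 114, 2.88 and 2.86 CPM in BA and 2.85, 1.04 and 1.18 CPM in E6 (log2 difference 3.66, SE 1.03, adjusted p = 0.0264, and 0.0633 without the block, with the call lost without BA replicate 1, E6 replicate 1, E6 replicate 2 or E6 replicate 3, at adjusted p of up to 0.111). The uncalled members were FOXA2, FOXH1, WNT3A and TBX6. FOXA2, a factor of axial mesoderm and endoderm, stood at 9.17, 0.0694 and 0.0629 CPM in BA and 3.77, 0 and 0.0303 CPM in E6, detectable in both replicate 1 libraries and near 0 in the others. TBX6 stood at 19.2, 9.58 and 7.51 CPM in BA and 1.72, 8.49 and 9.01 CPM in E6, with the media apart in replicate 1 only. The list had a median log2 difference of 4.75, and all genes tested had 0.04. Its median by pair was 6.05, 3.15 and 2.93 in replicates 1, 2 and 3. Without the block 10 of the 16 were called, and in replicates 2 and 3 alone 16 were higher and 1 lower.

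**Figure D3:**
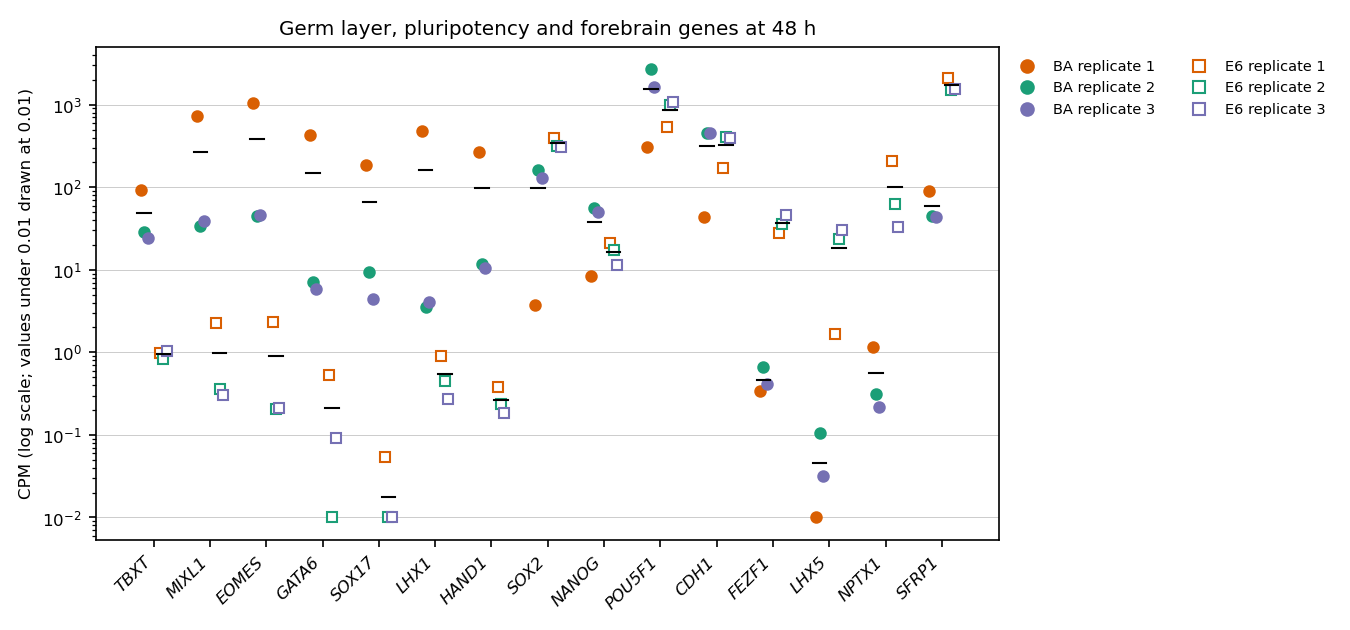
Level in CPM (log axis) of streak, endoderm, mesoderm, pluripotency, epithelial and forebrain genes in each of the 6 libraries at 48 h, drawn as in the plot of BMP targets. Streak and endoderm genes are highest in BA replicate 1, where SOX2, NANOG and CDH1 are lowest; FEZF1, LHX5, NPTX1 and SFRP1 are higher in all 3 E6 libraries than in any BA library.

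For most definitive endoderm genes the difference between media was larger in replicate 1. Of 17 tested 7 were higher in BA and 1 lower (12.4% and 9.72% of all genes). SOX17, which specifies endoderm, had 3148 reads in BA and 1 in E6, a ratio of 3556 (exact 95% interval 638 to 140516), and stood at 184, 9.51 and 4.43 CPM in BA (adjusted p = 2.40e-05). GATA6 stood at 427, 7.08 and 5.82 CPM in BA and 0.538, 0 and 0.0910 CPM in E6 (log2 difference 9.01, SE 0.44, adjusted p = 5.35e-07, and 0.074 without the block). GATA4 stood at 132, 1.74 and 1.73 CPM in BA and 0.161, 0.148 and 0.0607 CPM in E6 (log2 difference 6.83, SE 1.25, adjusted p = 0.003). The member that fell was SHISA2, with 18.1, 2.74 and 2.23 CPM in BA and 67.8, 21.0 and 23.7 CPM in E6 (log2 difference -2.48, SE 0.58, adjusted p = 0.0107, and 0.106 without the block, with the call lost without E6 replicate 1, at adjusted p of up to 0.0526). The median log2 difference was 1.73 over the list, against 0.04 over all genes tested. By pair it was 3.52, 0.19 and 0.10 in replicates 1, 2 and 3. The difference was larger in replicate 1 for 11 of the 17 and smaller for none (9.72% and 9.04% of all genes). Without replicate 1 of each group 7 were higher and 7 lower, and without the block 3 were higher. Without BA replicate 1, 3 were lower, and without E6 replicate 1 none were.

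Most nascent and cardiovascular mesoderm genes were higher in BA. Of 23 tested 16 were higher and 1 lower (12.4% and 9.72% of all genes), and 17 had a larger difference in replicate 1 (9.72% of all genes). ISL1, a cardiac progenitor and amnion factor, had 908 reads in BA and 1 in E6, a ratio of 1026 (exact 95% interval 184 to 40561), with 57.7, 0.660 and 1.04 CPM in BA (adjusted p = 4.76e-05). TBX3 stood at 469.8, 11.1 and 12.2 CPM in BA and 1.18, 0 and 0 CPM in E6 (log2 difference 8.98, SE 0.44, adjusted p = 5.35e-07, and 0.104 without the block). The member that fell was MEIS2, with 1.21, 0.243 and 0.0629 CPM in BA and 6.67, 2.73 and 3.85 CPM in E6 (log2 difference -3.81, SE 0.68, adjusted p = 0.00266, and 0.343 without the block). Over the list the median log2 difference was 3.36 (0.04 over all genes tested). The pairs had medians that were 4.75, 1.40 and 1.46 in replicates 1, 2 and 3. Without the block 10 were higher and none lower, and in replicates 2 and 3 alone 17 were higher and 3 lower.

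Some later mesoderm factors, named after their values were seen, were read almost only in BA replicate 1 and did not pass the filter on low counts. FOXF1, a lateral plate factor, had 630, 10 and 10 reads in BA and 1, 1 and 0 in E6. NKX2-5, a cardiac factor, had 284, 5 and 8 reads in BA and 0, 2 and 3 in E6, and TBX20 had 179, 3 and 1 against 0, 3 and 2. HAND2 had 31, 1 and 0 reads in BA. With these reads in 1 library they have no replicate check.

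HOX genes, which set position along the trunk, were also read mainly in BA replicate 1. HOXB6, named like the next 3 after its values were seen, had 152, 0 and 0 reads in BA and none in E6, and HOXB9 had 59, 4 and 13 against none. HOXB3 had 23, 0 and 0 reads in BA and HOXB5 17, 0 and 0, with none in E6. Of the 18 CDX and HOX genes 14 were too low to test, and of the 4 tested 3 were higher in BA (12.4% of all genes). Without the block 2 were higher (2.03% of all genes), and from replicates 2 and 3 alone 2 (20.3%). The 4 summed to 0.269 to 0.364 CPM in E6, which left little room for a call of lower in BA. CDX1, a WNT-induced activator of HOX genes, stood at 8.63, 1.53 and 1.98 CPM in BA and 0, 0.0297 and 0.0607 CPM in E6, with 3 reads in E6 and a ratio of 88.5 (exact 95% interval 29.9 to 432, adjusted p = 1.31e-04). CDX2, its relative, had 37 reads in BA and none in E6, at least 13.9-fold higher against a floor of 3 reads over the group (adjusted p = 0.00633, and 0.139 without the block, with the call lost without E6 replicate 1, at adjusted p of up to 0.0578). HOXD1 had 10 reads in BA and none in E6, at least 3.77-fold higher by the same floor (adjusted p = 0.0312, with the call lost without BA replicate 2, BA replicate 3, E6 replicate 1, E6 replicate 2 or E6 replicate 3, at adjusted p of up to 0.101).

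Amnion and trophoblast genes were mostly higher in BA. Of 21 tested 13 were higher and 1 lower (12.4% and 9.72% of all genes). In replicate 1, 2 differences were larger and 3 smaller, near the shares of all genes (9.72% and 9.04%). TFAP2A, a factor of surface ectoderm, amnion and neural crest, stood at 27.9, 54.1 and 50.9 CPM in BA and 0.108, 0.0890 and 0.152 CPM in E6 (log2 difference 8.59, SE 0.73, adjusted p = 2.57e-05). Among the BA libraries it was lowest in replicate 1. The other leading members were ISL1, GATA3 and HAND1, described above. KRT7, a keratin of simple epithelia, fell, with 0.202, 4.17 and 2.51 CPM in BA and 3.66, 21.5 and 21.1 CPM in E6 (log2 difference -2.86, SE 0.30, adjusted p = 1.06e-04, and 0.205 without the block). The placental hormone gene CGA was at 0 reads in all 6 libraries, which allows up to 3 reads in each. The list had a median log2 difference of 1.80, and all genes tested had 0.04. Its median by pair was 1.68, 1.21 and 1.09 in replicates 1, 2 and 3. Without the block 10 were higher and none lower, and in replicates 2 and 3 alone 13 were higher and 2 lower.

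Among forebrain and neuroectoderm genes 17 of 36 tested were lower in BA, 1 was higher and 18 were not called (9.72% of all genes were lower and 12.4% higher). In 15 of the 17 all BA libraries lay below all E6 libraries. That order held for 9.28% of all genes, and 2561 of the 4760 called genes were apart in the direction of their call. FEZF1, which represses other fates in the forebrain, stood at 0.337, 0.660 and 0.409 CPM in BA and 27.6, 36.0 and 46.6 CPM in E6 (log2 difference -6.24, SE 0.40, adjusted p = 3.96e-06), 75.5-fold lower. At seeding it stood at 1.15 ± 0.183 CPM (SD, n = 3). NPTX1, a neuronal pentraxin, stood at 1.15, 0.312 and 0.220 CPM in BA and 208, 63.2 and 32.7 CPM in E6 (log2 difference -7.50, SE 0.99, adjusted p = 4.43e-04). LHX5, a LIM homeobox factor of the forebrain, stood at 0, 0.104 and 0.0314 CPM in BA and 1.67, 23.5 and 30.2 CPM in E6 (log2 difference -8.51, SE 1.60, adjusted p = 0.00356), with E6 replicate 1 the lowest of its group.

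SOX21, a SOX factor of neural progenitors, stood at 20.6, 0.139 and 0.251 CPM in BA and 65.9, 23.8 and 31.3 CPM in E6 (log2 difference -5.11, SE 0.97, adjusted p = 0.00378, and 0.702 without the block), and its difference was smaller in size in replicate 1 (difference between the sets 5.41, adjusted p = 6.29e-06). SOX1, the neural tube factor, had 74 reads in E6, nearly all in replicate 1, and none in BA (adjusted p = 0.00593, and 0.447 without the block, with the call lost without BA replicate 1 or E6 replicate 1, at adjusted p of up to 0.486), at least 21.8-fold lower against a floor of 3 reads over the group. CDH2, N-cadherin, was the member that rose, and streak cells express it too: it stood at 756, 131 and 155 CPM in BA and 243, 105 and 106 CPM in E6 (log2 difference 0.90, SE 0.24, adjusted p = 0.0215, and 0.492 without the block, with the call lost without E6 replicate 1 or E6 replicate 3, at adjusted p of up to 0.0896). The median log2 difference was -1.14 over the list, against 0.04 over all genes tested. By pair it was -1.35, -0.63 and -0.78 in replicates 1, 2 and 3. In replicates 2 and 3 alone 24 were lower and 2 higher, and without the block 6 were lower.

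Of 34 primed pluripotency genes tested 9 were lower in BA, 3 higher and 22 not called (9.72% of all genes were lower and 12.4% higher). For 20 of the 34 BA minus E6 was lower in replicate 1 than in replicates 2 and 3 (9.04% of all genes), which for a gene lower in BA is a larger fall. SOX2 stood at 3.71, 162 and 129 CPM in BA and 395, 314 and 308 CPM in E6 and was by far the lowest in BA replicate 1 (log2 difference -1.99, SE 0.83, adjusted p = 0.11). The difference between the sets passed the test (difference between the sets -5.64, adjusted p = 1.44e-07). NANOG stood at 8.43, 56.5 and 50.1 CPM in BA and 21.1, 17.2 and 11.4 CPM in E6: BA was below E6 in replicate 1 and above it in replicates 2 and 3 (log2 difference 0.87, SE 0.47, adjusted p = 0.215, difference between the sets -3.22, adjusted p = 1.93e-05). NANOG has pseudogene copies that may share its reads.

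ESRG, a long noncoding RNA of human pluripotent cells named here after its values were seen, stood at 9.11, 1077 and 1239 CPM in BA and 553, 988 and 987 CPM in E6 (log2 difference -0.88, SE 0.86, adjusted p = 0.505). It too was low in BA replicate 1 alone (difference between the sets -6.15, adjusted p = 1.37e-07). The members lower in BA at every replicate included IDO1, USP44 and JADE1. IDO1 stood at 0, 2.36 and 2.61 CPM in BA and 8.07, 58.5 and 57.7 CPM in E6 (log2 difference -4.76, SE 0.36, adjusted p = 1.19e-05, and 0.104 without the block). USP44 stood at 11.7, 52.7 and 60.4 CPM in BA and 302, 139.8 and 138 CPM in E6 (log2 difference -2.13, SE 0.54, adjusted p = 0.0164, with the call lost without E6 replicate 1, at adjusted p of up to 0.0501). JADE1 stood at 75.2, 103 and 101.4 CPM in BA and 289, 193 and 183 CPM in E6 (log2 difference -1.20, SE 0.22, adjusted p = 0.00284). IDO1 degrades tryptophan, and USP44 and JADE1 act on histone ubiquitin and histone acetylation. GDF3, ETV4 and VRTN were the members that rose (VRTN adjusted p = 0.0258, and 0.527 without the block, with the call lost without BA replicate 1, BA replicate 2, BA replicate 3, E6 replicate 1, E6 replicate 2 or E6 replicate 3, at adjusted p of up to 0.163). Over the list the median log2 difference was -0.72 (0.04 over all genes tested). The pairs had medians that were -1.34, -0.29 and -0.41 in replicates 1, 2 and 3. With both replicate 1 libraries left out 10 were higher and 19 lower, and without the block 1 was higher and 2 lower. Without BA replicate 1, 6 were higher, and without E6 replicate 3, 5 were lower.

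**Figure D4:**
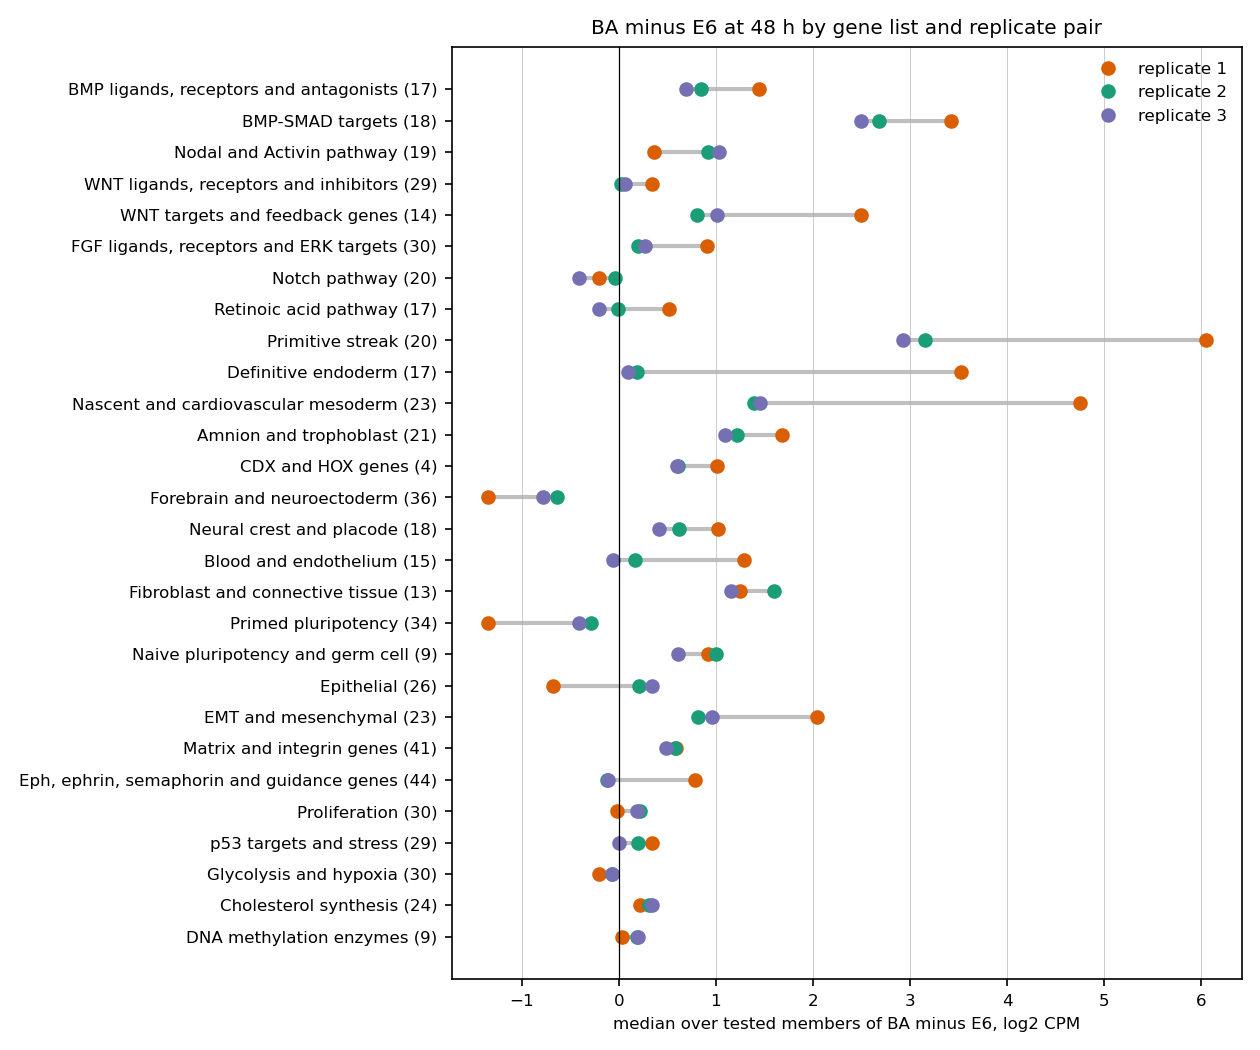
Median BA minus E6 difference (log2 CPM with 0.5 CPM added) over the tested members of each of 28 gene lists, with the number tested in brackets, in replicate pairs 1, 2 and 3 (coloured points joined by a grey bar). Replicate 1 stands apart for streak (6.05 against 3.15 and 2.93), endoderm (3.52 against 0.19 and 0.10), mesoderm (4.75 against 1.40 and 1.46), pluripotency and epithelial genes. Its median lies nearer the others for BMP targets (3.42 against 2.68 and 2.49), amnion, matrix and cholesterol genes, though single members differ.

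The keratins KRT8, KRT18 and KRT19 rose, while KRT7, the keratin of simple epithelia described among the amnion genes, fell. By pair, the median over epithelial genes was below 0 in replicate 1 alone. Of 26 epithelial genes 4 were higher and 1 lower, near the background of 12.4% and 9.72%. For 17 BA minus E6 was lower in replicate 1 than in replicates 2 and 3 (9.04% of all genes). KRT8 stood at 414, 782 and 689.9 CPM in BA and 104, 229 and 219 CPM in E6 (log2 difference 1.80, SE 0.10, adjusted p = 1.04e-06), KRT18 rose by 1.33 (adjusted p = 1.28e-05, and 0.363 without the block) and KRT19 by 1.01 (adjusted p = 3.61e-04, and 0.609 without the block). These keratins are paired filament proteins that amnion-type and other simple epithelia carry. CDH1, E-cadherin, named here after its values were seen, stood at 43.6, 452 and 459 CPM in BA and 173, 408 and 391 CPM in E6 (log2 difference -0.25, SE 0.43, adjusted p = 0.728), and only BA replicate 1 was below the E6 range (difference between the sets -2.18, adjusted p = 2.01e-06). The list had a median log2 difference of -0.01, and all genes tested had 0.04. Its median by pair was -0.68, 0.21 and 0.34 in replicates 1, 2 and 3. Without replicate 1 of each group 13 were higher and 2 lower, and without the block 1 was higher and none lower. Without BA replicate 1, 10 were higher.

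Of 23 genes of the epithelial to mesenchymal transition 12 were higher in BA, none lower and 11 not called (12.4% of all genes were higher and 9.72% lower). The difference was larger in replicate 1 for 13 and smaller for 2 (9.72% and 9.04% of all genes). FN1, fibronectin, stood at 3770.4, 1841 and 1976 CPM in BA and 230.4, 88.7 and 85.7 CPM in E6, 19.99-fold higher (log2 difference 4.32, SE 0.25, adjusted p = 1.62e-06). TGFB1 stood at 213, 135 and 104 CPM in BA and 8.13, 20.003 and 19.96 CPM in E6 (log2 difference 3.18, SE 0.51, adjusted p = 0.00146). SNAI2, a repressor of E-cadherin, stood at 85.3, 2.57 and 2.36 CPM in BA and 1.24, 1.25 and 0.758 CPM in E6 and was far higher in BA replicate 1 (log2 difference 3.21, SE 0.99, adjusted p = 0.038, and 0.119 without the block, with the call lost without BA replicate 1, E6 replicate 1, E6 replicate 2 or E6 replicate 3, at adjusted p of up to 0.153). The median log2 difference was 1.49 over the list, against 0.04 over all genes tested. By pair it was 2.04, 0.81 and 0.96 in replicates 1, 2 and 3. In replicates 2 and 3 alone 15 were higher and 4 lower, and without the block 6 were higher.

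Matrix and integrin genes gave 18 higher and 4 lower of 41 (12.4% and 9.72% of all genes). HAS2, the synthase of the hyaluronan that fills the early mesoderm, stood at 862, 27.6 and 34.5 CPM in BA and 8.45, 5.28 and 5.61 CPM in E6 (log2 difference 4.16, SE 0.72, adjusted p = 0.00221). COL5A2 stood at 2528, 166 and 181 CPM in BA and 98.6, 24.4 and 22.6 CPM in E6 (log2 difference 3.72, SE 0.48, adjusted p = 4.05e-04, and 0.065 without the block). HAPLN1, which links hyaluronan to proteoglycans, stood at 377, 3.09 and 5.22 CPM in BA and 3.07, 1.04 and 1.18 CPM in E6 (log2 difference 4.24, SE 1.07, adjusted p = 0.0158, and 0.0986 without the block, with the call lost without E6 replicate 1, at adjusted p of up to 0.0804). Among those lower were NID2, a basement membrane protein, with 3.71, 4.79 and 5.88 CPM in BA and 12.003, 30.5 and 28.3 CPM in E6 (log2 difference -2.29, SE 0.40, adjusted p = 0.00256). COL2A1 stood at 18.0, 7.25 and 5.69 CPM in BA and 65.7, 46.0 and 39.1 CPM in E6 (log2 difference -2.58, SE 0.55, adjusted p = 0.00714, and 0.373 without the block). With both replicate 1 libraries left out 27 were higher and 9 lower, and without the block 7 were higher and 1 lower. Without E6 replicate 2 or E6 replicate 3, 2 were lower. Among Eph, ephrin, semaphorin and other guidance genes 10 of 44 were higher and 3 lower (12.4% and 9.72% of all genes), with 8 lower without BA replicate 1 and 1 without E6 replicate 3. Without the block 3 were higher and none lower, and replicates 2 and 3 alone gave 16 higher and 15 lower. PLXNA2, a semaphorin receptor, stood at 845, 18.7 and 18.6 CPM in BA and 10.3, 2.31 and 2.31 CPM in E6 (log2 difference 4.78, SE 0.85, adjusted p = 0.00272, and 0.0567 without the block). SEMA3E stood at 88.4, 8.82 and 9.81 CPM in BA and 2.91, 1.22 and 1.001 CPM in E6 (log2 difference 3.84, SE 0.47, adjusted p = 2.53e-04).

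Markers of other cells that the cultures could hold were also read. Without the block the fibroblast list had 2 higher and none lower, the neural crest list 4 and 1, and the blood and endothelium list 1 and none. From replicates 2 and 3 alone these were 8 and 3, 9 and 3, and 5 and 3. Of 13 fibroblast and connective tissue genes tested 7 were higher in BA and 2 lower (12.4% and 9.72% of all genes), with a summed level of 2394 to 3077 CPM in BA and 669 to 1159 CPM in E6. TNC, tenascin, stood at 661, 233 and 246 CPM in BA and 88.9, 10.6 and 13.1 CPM in E6 (log2 difference 3.88, SE 0.36, adjusted p = 4.14e-05, and 0.153 without the block). PDGFRB stood at 132, 97.7 and 97.2 CPM in BA and 22.7, 23.8 and 23.5 CPM in E6 (log2 difference 2.16, SE 0.33, adjusted p = 0.00111). The part of such cells in the results was not tested. The defining fibroblast genes DCN, LUM and FAP had 0 to 2 reads in each library and were not tested. Of 18 neural crest and placode genes 7 were higher and 1 lower against the same shares, with a sum of 318 to 452 CPM in BA and 178 to 228 CPM in E6, and SOX10 was at 0 reads in all 6 libraries. Of 15 blood and endothelium genes 6 were higher and 1 lower, again against those shares, with a sum of 49.1 to 114 CPM in BA and 36.0 to 43.7 CPM in E6; RUNX1 stood at 20.3, 8.05 and 8.58 CPM in BA and 1.02, 1.87 and 1.24 CPM in E6 (log2 difference 2.89, SE 0.57, adjusted p = 0.00474), and PTPRC, HBG1 and HBZ had 0 to 3 reads a library. The 6 became 2 without E6 replicate 1, and 3 without BA replicate 1, E6 replicate 2 or E6 replicate 3.

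Naive pluripotency and germ cell genes gave 4 higher and 1 lower of 9, against 12.4% and 9.72% of all genes. Without the block 2 were higher and 1 lower, and from replicates 2 and 3 alone 5 and 3. NANOS3 stood at 1.89, 3.02 and 1.98 CPM in BA and 0.0538, 0.208 and 0.303 CPM in E6 (log2 difference 3.61, SE 0.49, adjusted p = 4.95e-04). TFAP2C, which specifies human primordial germ cells and is also an amnion factor, stood at 27.5, 47.0 and 47.9 CPM in BA and 1.88, 4.84 and 5.64 CPM in E6 (log2 difference 3.36, SE 0.42, adjusted p = 3.17e-04). DAZL, an RNA-binding protein of germ cells, fell, with 0.0675, 0.208 and 0.126 CPM in BA and 4.95, 2.61 and 3.28 CPM in E6 (log2 difference -4.49, SE 0.40, adjusted p = 3.29e-05). The naive genes KLF17 and ARGFX were at 0 reads in all 6 libraries. The sum over the list was 119 to 218 CPM in BA and 49.5 to 72.4 CPM in E6.

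Of 20 Notch pathway genes 5 were lower in BA and 2 higher (9.72% of all genes were lower and 12.4% higher). Without the block 1 was lower and none higher, and from replicates 2 and 3 alone 7 were lower and 2 higher. LFNG, a glycosyltransferase that tunes Notch receptors, stood at 4.92, 17.04 and 15.9 CPM in BA and 18.4, 62.6 and 66.0 CPM in E6 (log2 difference -1.93, SE 0.38, adjusted p = 0.00464). The effector HEY2 stood at 37.8, 14.1 and 12.04 CPM in BA and 8.88, 1.51 and 1.15 CPM in E6 (log2 difference 2.64, SE 0.52, adjusted p = 0.00472, and 0.0697 without the block). In the retinoic acid pathway 3 of 17 were higher and 1 lower, near the 12.4% and 9.72% of all genes, and replicates 2 and 3 alone gave 3 higher and 6 lower. Without BA replicate 1, 3 were lower, without E6 replicate 1, 4, and without any of the other 4 libraries none. No retinoic acid gene was called without the block. RDH10, the enzyme that makes retinal, was higher in BA, with 25.0, 22.1 and 15.4 CPM in BA and 13.4, 4.24 and 4.09 CPM in E6 (log2 difference 1.74, SE 0.25, adjusted p = 8.12e-04, and 0.183 without the block). Cholesterol synthesis genes rose by small amounts, 9 of 24 with 1 lower (12.4% and 9.72% of all genes). Without replicate 1 of each group 17 of the 24 were higher and 1 lower, and without the block 1 was. The 9 became 3 without BA replicate 3 or E6 replicate 3, 4 without E6 replicate 2, and 5 without BA replicate 2 or E6 replicate 1.

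The last 4 lists cover growth, stress and metabolism, and their counts are read against 12.4% and 9.72% of all genes. Without the block 1 proliferation gene and 1 glycolysis gene were higher, and no p53, stress or DNA methylation gene was called. Replicates 2 and 3 alone gave 14 higher and 2 lower for proliferation, 11 and 9 for p53 and stress, 8 and 9 for glycolysis and hypoxia, and 4 and 4 for the DNA methylation enzymes. Of 30 proliferation genes 6 were higher and 1 lower, and CCND2, a G1 cyclin, stood at 164, 249.6 and 235 CPM in BA and 102, 138 and 140.2 CPM in E6 (log2 difference 0.77, SE 0.15, adjusted p = 0.00392). Of 29 p53 and stress genes 8 were higher and 3 lower, with GADD45B, a stress sensor that BMP and TGF-beta induce, at 8.63, 64.7 and 54.7 CPM in BA and 0.915, 8.67 and 6.92 CPM in E6 (log2 difference 2.94, SE 0.62, adjusted p = 0.00666, and 0.179 without the block). Of 30 glycolysis and hypoxia genes 2 were higher and 3 lower, with HK1, hexokinase, at 629, 529.9 and 521 CPM in BA and 253, 338 and 321 CPM in E6 (log2 difference 0.88, SE 0.17, adjusted p = 0.00377). Of 9 DNA methylation enzymes 2 were higher and 1 lower, and without E6 replicate 2 none were higher. The summed level of the glycolysis list ran from 13297 to 31056 CPM in BA and from 12021 to 30238 CPM in E6, so the media covered much the same range. Without E6 replicate 2, 2 proliferation genes and 3 p53 and stress genes were higher and no glycolysis gene was lower, and without E6 replicate 3 these were 2, 4 and none. Without BA replicate 3, 3 proliferation genes and 5 p53 and stress genes were higher, and without BA replicate 1, 5 p53 and stress genes were higher.

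**Figure D5:**
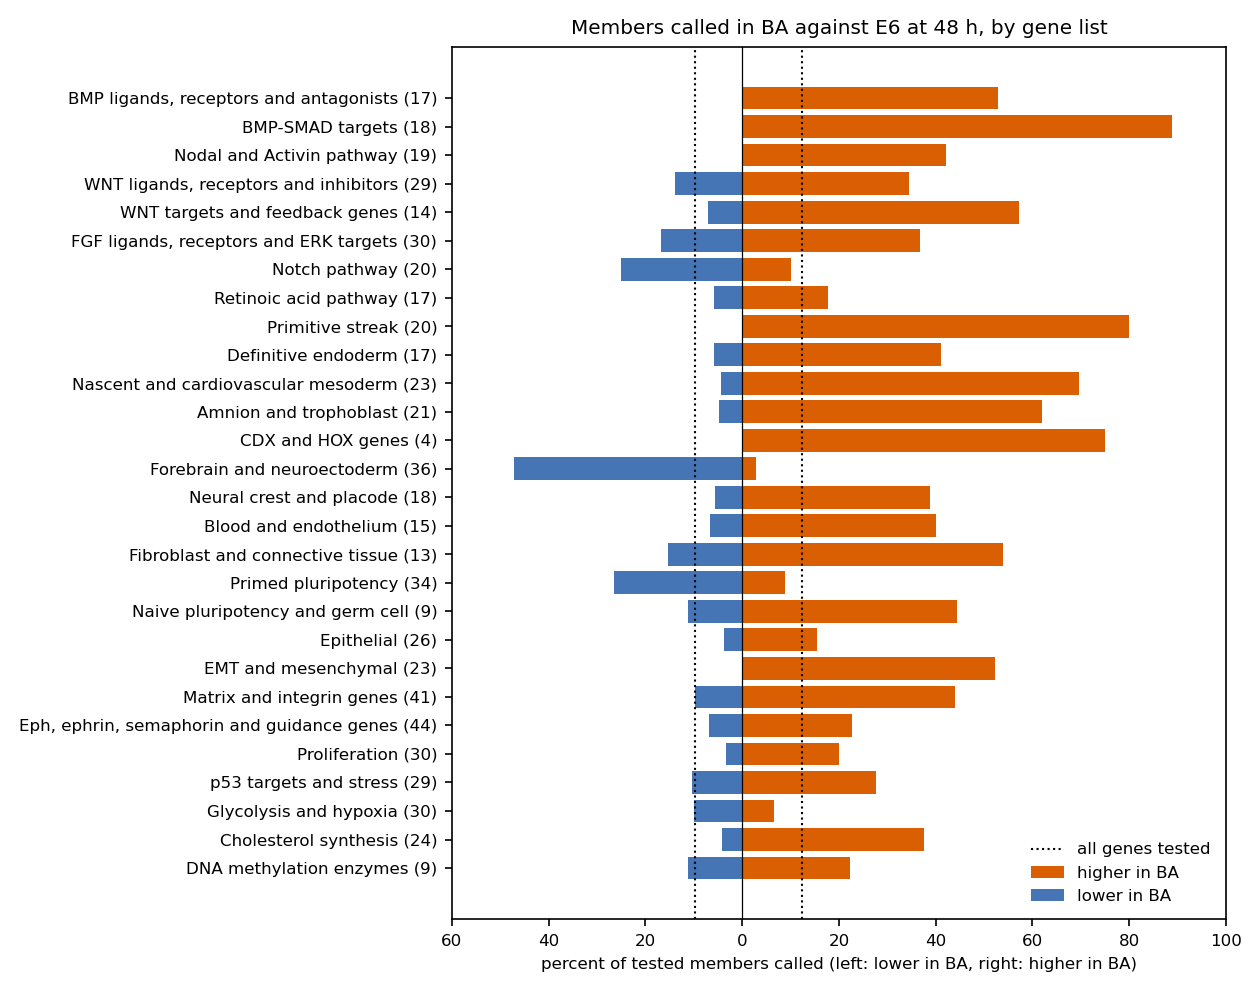
Percent of the tested members of each of 28 gene lists (number tested in brackets) called higher in BA (right) or lower in BA (left) than in E6 at 48 h, with dotted lines at the share of all genes tested (12.4% higher, 9.72% lower). BMP-SMAD targets and primitive streak genes have the longest bars to the right (16 of 18 and 16 of 20) and forebrain genes the longest to the left (17 of 36).

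The genes called with at least 10 CPM in the higher group and the same direction in each pair were ranked by their difference between media. The 12 higher in BA than in E6 by the most were SOX17, EVX1, EVX1-AS, GATA6-AS1, ISL1, PCAT14, GATA6, TBX3, FABP5P3, GATA3, TFAP2A and MSX2. PCAT14, a long noncoding RNA at chr22:23536881-23547797 on GRCh38, was abundant in every BA library, with 1459.7, 759 and 1044 CPM in BA and 3.88, 1.39 and 1.36 CPM in E6 (log2 difference 9.07, SE 0.49, adjusted p = 1.07e-06). EVX1-AS and GATA6-AS1, transcripts antisense to EVX1 and GATA6, had 686 and 909 reads in BA and none in E6, at least 258-fold and 342-fold higher against a floor of 3 reads over the group (adjusted p = 0.00108, and 0.128 without the block for the first). Most of these reads lay in BA replicate 1, with 513, 78 and 95 for EVX1-AS and 765, 61 and 83 for GATA6-AS1. The bounds therefore hold for the pooled libraries and not for each replicate. Whether the counting used strand is not stated, so reads of these genes and their partners cannot be told apart. FABP5P3 is a pseudogene whose reads may be shared with FABP5, and it stood at 0.0675, 31.3 and 33.7 CPM in BA and 0.0538, 0.0594 and 0.0303 CPM in E6, raised in replicates 2 and 3 alone (log2 difference 8.97, SE 1.75, adjusted p = 0.00426, and 0.171 without the block, with the call lost without E6 replicate 3, at adjusted p of up to 0.0573). At seeding FABP5P3 stood at 9.81 CPM with an SD of 8.57, between the means of the media.

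Besides LHX5, NPTX1, FEZF1, SOX21, SFRP1 and IDO1, the 12 lower in BA than in E6 by the most were FEZF1-AS1, HES3, JAKMIP2-AS1, PAPLN, ECEL1P1 and GREB1L. This is a difference between media and not a change from seeding. At seeding FEZF1-AS1, HES3 and JAKMIP2-AS1 had means of 0.799, 9.50 and 11.9 CPM. PAPLN, ECEL1P1 and GREB1L had means of 5.04, 0.345 and 28.4 CPM there, GREB1L with an SD of 47.9 CPM. HES3, a repressor of the Hairy family in neural progenitors, stood at 0.0675, 0.521 and 0.472 CPM in BA and 46.8, 26.2 and 33.6 CPM in E6 (log2 difference -6.31, SE 0.86, adjusted p = 5.35e-04). It fell further in replicate 1 (difference between the sets -3.44, adjusted p = 0.00654), with 1 read in that BA library. PAPLN, which encodes the matrix protein papilin, stood at 0.877, 1.46 and 1.35 CPM in BA and 71.5, 35.5 and 41.9 CPM in E6 (log2 difference -5.20, SE 0.35, adjusted p = 5.27e-06). Its fall too was larger in replicate 1 (difference between the sets -1.56, adjusted p = 0.0228). JAKMIP2-AS1 stood at 0.135, 0.451 and 0.723 CPM in BA and 14.6, 31.1 and 30.4 CPM in E6 (log2 difference -5.95, SE 0.31, adjusted p = 9.95e-07). In PAPLN and JAKMIP2-AS1 all BA libraries lay far below all E6 libraries. GREB1L was lower in BA in each pair but by much less in replicate 1, with 50.9, 1.01 and 1.54 CPM in BA and 126, 48.3 and 61.4 CPM in E6 (log2 difference -4.94, SE 0.92, adjusted p = 0.00338, and 0.817 without the block, difference between the sets 4.11, adjusted p = 2.22e-06). ECEL1P1 is a pseudogene and FEZF1-AS1 an antisense transcript, with the same limits on their reads.

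By smallest p the genes higher in BA further included AC016700.6 and MMP2, and those lower included MAP6, LRIG1 and AP000662.4. MMP2, a gelatinase that degrades basement membrane, stood at 446, 231 and 219 CPM in BA and 103, 52.6 and 49.7 CPM in E6 (log2 difference 2.13, SE 0.10, adjusted p = 3.80e-07), and no difference between the sets was called (difference between the sets -0.03, adjusted p = 0.959). LRIG1, a receptor that restrains growth factor signalling, stood at 92.3, 37.9 and 36.9 CPM in BA and 428, 249 and 244 CPM in E6 (log2 difference -2.52, SE 0.18, adjusted p = 7.09e-06). It fell less far in replicate 1 (difference between the sets 0.51, adjusted p = 0.00972). MAP6, a microtubule protein of neurons, stood at 0.540, 0.764 and 0.377 CPM in BA and 6.35, 16.4 and 15.3 CPM in E6 (log2 difference -4.49, SE 0.29, adjusted p = 3.96e-06). AC016700.6 was at 0 CPM in both media in replicate 1, and stood at 0, 116 and 182 CPM in BA and 0, 0.178 and 0.121 CPM in E6 (log2 difference 9.87, SE 0.30, adjusted p = 1.65e-08, and 0.188 without the block). Its call rests on replicates 2 and 3, and at seeding it stood at 107 ± 95.4 CPM (SD, n = 3).

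The genes whose difference was larger in replicate 1 by the most included TNS4, FAM196B, MSX1, OVCH2 and BHLHE22, with 11.7 to 75.6 CPM in BA replicate 1 and none above 1.7 CPM in any other library. TNS4, a focal adhesion protein, stood at 23.5, 1.63 and 1.23 CPM in BA and 0, 1.42 and 1.001 CPM in E6. The E6 library of replicate 1 was at 0 for TNS4, FAM196B, OVCH2 and BHLHE22, so no size of their interaction is given. The 6 whose BA minus E6 was lower in replicate 1 by the most were LINC00678, FOXD3, RP11-69I8.2, LINC01194, SOX3 and GDF3. FOXD3, a repressor that holds pluripotency, stood at 0.0675, 15.8 and 11.0 CPM in BA and 11.4, 10.4 and 10.4 CPM in E6 (difference between the sets -7.67, adjusted p = 5.41e-06). SOX3, a SOX factor close to SOX2, stood at 0.202, 67.7 and 57.0 CPM in BA and 18.7, 55.9 and 55.0 CPM in E6 (difference between the sets -6.67, adjusted p = 3.01e-06). LINC00678 stood at 0.944, 146 and 152 CPM in BA and 78.3, 36.3 and 26.7 CPM in E6: BA replicate 1 was the lowest of the 6 libraries and BA replicates 2 and 3 were the highest.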

How the data were processed

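Poly(A) RNA was sequenced from TruSeq mRNA libraries, per the labels' protocols. The authors deposited 1 table of whole read counts per gene, made with featureCounts on hg38 per the submitters' processing notes, with no strand setting or version given in the sources used here. Counts were tested as deposited with edgeR 4.0.16 (TMM factors, filterByExpr, quasi-likelihood F-test) in R 4.3.3. The 15 libraries of the 5 groups with 3 libraries were fitted with a replicate block. These groups were cells at seeding, BA at 24 h, and BA, E6 and E8 at 48 h. The p-values were adjusted by Benjamini-Hochberg over the 21554 genes tested. The interaction replaced the block by the replicate set. Same-numbered BA and E6 libraries deviated together (r = 0.746, 0.673 and 0.607), so the numbers were taken as pairs, but libraries 2 and 3 did so too (0.624 and 0.636), and the block mainly separates replicate 1. The labels do not say what the numbers share.

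Genes were named by rule: the 12 largest changes in each direction with at least 10 CPM, the 8 smallest p, the 6 largest interactions, up to 4 called members per list and direction, and all members of the signalling and streak lists. The members and lists were chosen with earlier results of these data known. Gene positions are from GENCODE 29 and promoters from RefSeq. Code was tested on simulated data. Alternatives were DESeq2 1.42.0, limma-voom (limma 3.58.1), RLE factors, other filters, other blocks and sets of libraries, and each library left out. Intervals and floors on reads cover counting error only. The authors' deposited table of their own comparisons was not used, since no column sets BA against E6. Some genes that the rule would name are not reported here.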

Additional observations from a re-analysis of the deposited data

Results flagged for a closer look

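The difference between BA and E6 at 48 h was unlike in replicate 1 and in replicates 2 and 3 for 4042 of 21554 genes, by the edgeR test of that difference itself (adjusted p below 0.05). Of these, 1228 were also among the 4760 genes called between the media and 2814 were not. Both replicate 1 libraries were the shallowest of their groups, and what else set them apart was not tested.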

How the results depend on the processing

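The 4760 called genes became 759 without the replicate block, 1341 with the replicate block in the 6 libraries alone, and 8639 in replicates 2 and 3 alone, and leaving out 1 library gave 2543 to 4311. The 6-library fit has 2 residual degrees of freedom against 8. RLE factors, other filters, a block of 2 levels, DESeq2 and limma-voom gave 4201 to 5392. The 4042 genes with unlike differences became 3468 to 4506 under the alternatives run on them, and 3162 to 3952 with 1 library of replicate 2 or 3 left out; leaving out a replicate 1 library gives no value. DUSP6, not called in the fit of all 15 libraries, had a log2 difference of -0.37 in replicates 2 and 3 alone. Of the 191 named genes called, 75 kept the call without the replicate block, 130 kept it whichever library was left out, and none turned direction. A count of 0 in a library allows up to 3 reads, and 14 of the 18 CDX and HOX genes were too low to test.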
